A study of Mus musculus with 24 samples.

Results

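N6-methyladenosine (m6A) peaks of mouse 2-cell embryos were compared with those of 8-cell embryos, the cleavage divisions that follow activation of the embryonic genome. The comparison rested on 4 of the 24 samples of the series, the 2 antibody-bound (immunoprecipitated) libraries of each stage, with 36980 of the 113764 peaks of all stages. A peak is an interval in which a library holds more antibody-bound than input RNA. Overlapping peaks of the 4 libraries were joined into 18925 regions. A region, or a protein-coding gene body, was called gained when it overlapped a peak in both 8-cell libraries and in neither 2-cell library, lost in the opposite case, and kept when all 4 libraries had a peak. Crossed calls, which take 1 library of each stage against the other 2, were counted in the same way as the background.

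All embryos were C57BL/6N, from 8-week-old superovulated females mated with 8-week-old males, and had their zona pellucida removed with acid. The 2-cell embryos were flushed 39 to 43 h after chorionic gonadotropin and pooled as 100 embryos in each replicate. The 8-cell embryos were flushed at 68 to 70 h and pooled as 100 (replicate 1) and 51 (replicate 2). Ribosomal RNA and DNA were removed, and part of each sheared sample was kept as input. Each value of a library is therefore that of a pool of embryos, with 2 biological replicates a stage. The other 4 stages (germinal vesicle oocytes, metaphase II oocytes, zygotes and blastocysts, 2 libraries each) played no part in the calls. They are used below to show where else the same regions were marked, the 6 oocyte and zygote libraries being called maternal.

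m6A is placed on nuclear RNA by a methyltransferase complex built on METTL3 and METTL14, and is read by YTH-domain proteins that affect splicing, translation and decay. In most mammalian messenger RNAs it lies in long internal exons and around the stop codon, towards the 3′ end, at adenosines in motifs such as GGACT. In the mouse, maternal RNA is largely cleared by the 2-cell stage while the embryonic genome, including many retrotransposons, is transcribed in a burst. By the 8-cell stage the blastomeres begin to compact and polarise, ahead of the separation of trophectoderm from inner cell mass. A missing peak can mean less transcript, less methylation of it or too few reads. The peak lists do not tell these apart.

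No genome sequence of the build was used here, so the sequence under most regions cannot be shown. RefSeq promoter windows of GRCm38.p6 (250 bases before to 50 after each gene start) cover a small part of them: 48 of 2297 gained regions (2.09%), 44 of 2774 lost regions (1.59%) and 68 of 2296 kept regions (2.96%) touched such a window. The methylation core GGACT, searched on the gene's strand, was present in 33.9% of the 56 windows under gained regions, 25% of the 48 under lost regions and 24.7% of the 81 under kept regions, against 26.1% of all 32851 windows. Within the 50 bases after the start alone, the shares were 10.7% (6 windows), 6.25% (3) and 4.94% (4), against 5.76% of all windows. Matches before the start lie outside a transcript that begins there. A match is a description of the window, not a methylated site. The sites below lie within called regions and are given 5′ to 3′ on the gene's strand, with the motif in capitals. They show what such a match looks like in a region of each kind.
Sox15, gained: tggcagctgttgGGACTttgtggagacca
Rnd3, gained: ccgatcggaattGGACTtgggaagagagg
Arih1, kept: gcgtcgcgccatGGACTcggacgagggct
Olfr976, lost: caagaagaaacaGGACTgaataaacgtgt
The Sox15 site, in the gene of a SOX-family transcription factor, lies on the plus strand at chr11:69655057-69655085, with its motif 32 bases after the gene start. The Rnd3 site lies on the minus strand at chr2:51149076-51149104, with the motif 19 bases after the start. Arih1 encodes a ubiquitin ligase, and its site, at chr9:59486329-59486357 on the minus strand, has the motif 29 bases after the start. The Olfr976 site, at chr9:39961047-39961075 on the minus strand, has its motif 19 bases before the start of an olfactory receptor gene. A transcript that begins at that start would not hold it.

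The stages had similar numbers of peaks but placed them differently. The 2-cell lists held 9161 and 9553 peaks and the 8-cell lists 8803 and 9463, ranges that overlap. The median fold enrichment that the authors gave was 6.02 ± 0.12 at the 2-cell stage and 5.90 ± 0.31 at the 8-cell stage (SD, n = 2 each). Peaks in protein-coding genes made up 60.8% and 67.2% of the 2-cell lists and 86.1% and 88.0% of the 8-cell lists. Intergenic peaks, outside every gene of the RefSeq table, made up 31.4% and 25.8% at the 2-cell stage and 8.46% and 7.34% at the 8-cell stage, a mean of 28.6% ± 3.94 against 7.90% ± 0.79 (SD, n = 2 each). The groups did not overlap, and the exact two-sided permutation p of 0.333 is the smallest that 2 libraries against 2 allow, so no comparison of library values between these stages can reach 0.05. Marked protein-coding genes, those with at least 1 peak over the gene body, numbered 3692 and 4020 at the 2-cell stage and 4624 and 4986 at the 8-cell stage. The Jaccard index (shared over combined base pairs) was 0.438 between the 2-cell replicates and 0.484 between the 8-cell replicates. Between stages it was 0.194 to 0.258, and over intergenic peaks alone 0.0550 to 0.0652.

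Gains outnumbered losses in genes, and losses outnumbered gains between genes. Over all 18925 regions, 12.1% were gained and 14.7% lost. Of 21887 protein-coding genes, 1080 (4.93%) were gained and 561 (2.56%) were lost, against 68 to 149 in the 4 crossed calls (0.311%, 0.681%, 0.443% and 0.315%). As a share of the 7074 genes marked in any of the 4 libraries these are 15.3% and 7.93%, and 1984 genes were kept. Among regions in protein-coding genes, 1961 of 13540 (14.5%) were gained and 957 (7.07%) were lost, against 77 to 302 in the crossed calls (0.569%, 2.23%, 1.01% and 1.31%). Intergenic regions went the other way: 193 of 4117 (4.69%) were gained and 1519 (36.9%) lost, against 12 to 21 in the crossed calls (0.51%, 0.462%, 0.462% and 0.291%). Regions that overlapped a non-coding gene or pseudogene but no protein-coding gene lay between, with 143 of 1268 (11.3%) gained and 298 (23.5%) lost, against 7 to 11 (0.789%, 0.552%, 0.868% and 0.71%). Of the regions that both 2-cell libraries had, 85.9% of the 1768 intergenic ones were lost and 7.24% kept, while 27.8% of the 3440 in protein-coding genes were lost and 60.0% kept. Requiring a peak in 1 library in place of 2 raises such counts: without 2-cell replicate 1 or 2, 947 or 1006 genes were lost, and without 8-cell replicate 1, 1738 were gained. Without either 8-cell replicate, gained regions in genes numbered 4114 (without replicate 1) and 3611 (without replicate 2), and gained intergenic regions 414 and 464. Without 2-cell replicate 1 or 2, lost regions in genes numbered 2288 or 2316, and without 2-cell replicate 2 lost intergenic regions numbered 2551 and gained genes 1679.

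**Figure D1:**
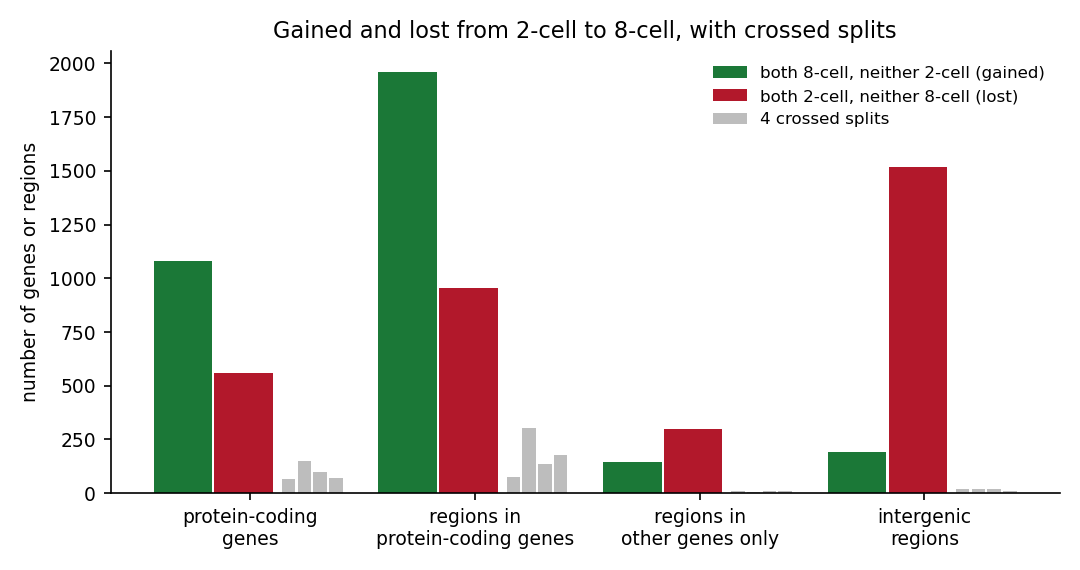
Number of protein-coding genes and of merged regions (vertical axis) gained or lost from the 2-cell to the 8-cell stage, with the 4 crossed calls in grey. Gains exceed losses for genes (1080 against 561) and genic regions (1961 against 957), and losses exceed gains for intergenic regions (1519 against 193).

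The 12 gained genes with the highest-ranking peaks were Tardbp, Tmem41b, Lrpap1, Pramel4, Ddx3x, Dnaja1, Gata6, Tet2, Hnrnpa2b1, Trim43b, Eif5 and Vnn1. Genes were ranked by the percentile, within each 8-cell list, of the −log10 q-value of their best peak, so the values that follow describe genes chosen for them and are given without a test. Fold means the authors' enrichment of bound over input RNA at the best peak. Tardbp, which encodes the RNA-binding protein TDP-43, had 8.99-fold and 9.08-fold peaks in the 8-cell libraries, the better at chr4:148617005-148617684. Pramel4, of a gene family expressed in germ cells and early embryos, had the highest folds of the group, 20.4 and 16.7, at chr4:144068273-144068497, 943 bp from the 3′ end of the gene. Tet2, a dioxygenase that oxidises methylated cytosine in DNA, had folds of 14.7 and 10.4. Hnrnpa2b1 encodes an RNA-binding protein proposed as a reader of m6A, and its folds were 10.1 and 9.23. The transcription factor Gata6, a regulator of primitive endoderm, had folds of 6.75 and 9.23. Ddx3x, an RNA helicase gene on the X chromosome, had folds of 6.97 and 4.88. Eif5 encodes a translation initiation factor, Dnaja1 a co-chaperone of HSP70, and Lrpap1 a chaperone of lipoprotein receptors. Of these 12 genes, 11 were marked in both blastocyst libraries, 5 in no maternal library, and Tardbp in all 6.

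The 12 lost genes with the highest-ranking peaks were Slco3a1, Spry4, Ppp1cb, Pld5, Oog3, Pakap, Rph3a, Arhgap24, Dync2h1, Lrrc20, Epha6 and H2ac20. Ppp1cb, which encodes a catalytic subunit of protein phosphatase 1, had folds of 64.2 and 46.8 in the 2-cell libraries, at chr5:32471147-32471982 and 22149 bp from the 3′ end of the gene. Pld5, of the phospholipase D family, had folds of 43.1 and 21.8 and no peak in any library outside the 2-cell stage. Dync2h1, the heavy chain of the dynein that works in cilia, had folds of 38.4 and 33.9, and its peak lay 161693 bp from the 3′ end. Epha6, an ephrin receptor gene of 969479 bp, had folds of 31.8 and 23.8. The transporter gene Slco3a1 had folds of 17.3 and 14.3. Spry4, a feedback inhibitor of receptor tyrosine kinase signalling, had folds of 9.38 and 6.00. H2ac20 is a histone H2A gene of 468 bp, with folds of 15.4 and 12.8. The lost genes of this group had a median length of 178390 bp, and the gained ones of 12995.5 bp. The contrast was smaller over all called genes, with a median of 53184 bp for the 561 lost and 25134 bp for the 1080 gained, beside 28789.5 bp for kept and 17169 bp for all protein-coding genes. In the maternal libraries 10 of the 12 were marked in all 6, and 9 of the 12 were marked in no blastocyst library.

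**Figure D2:**
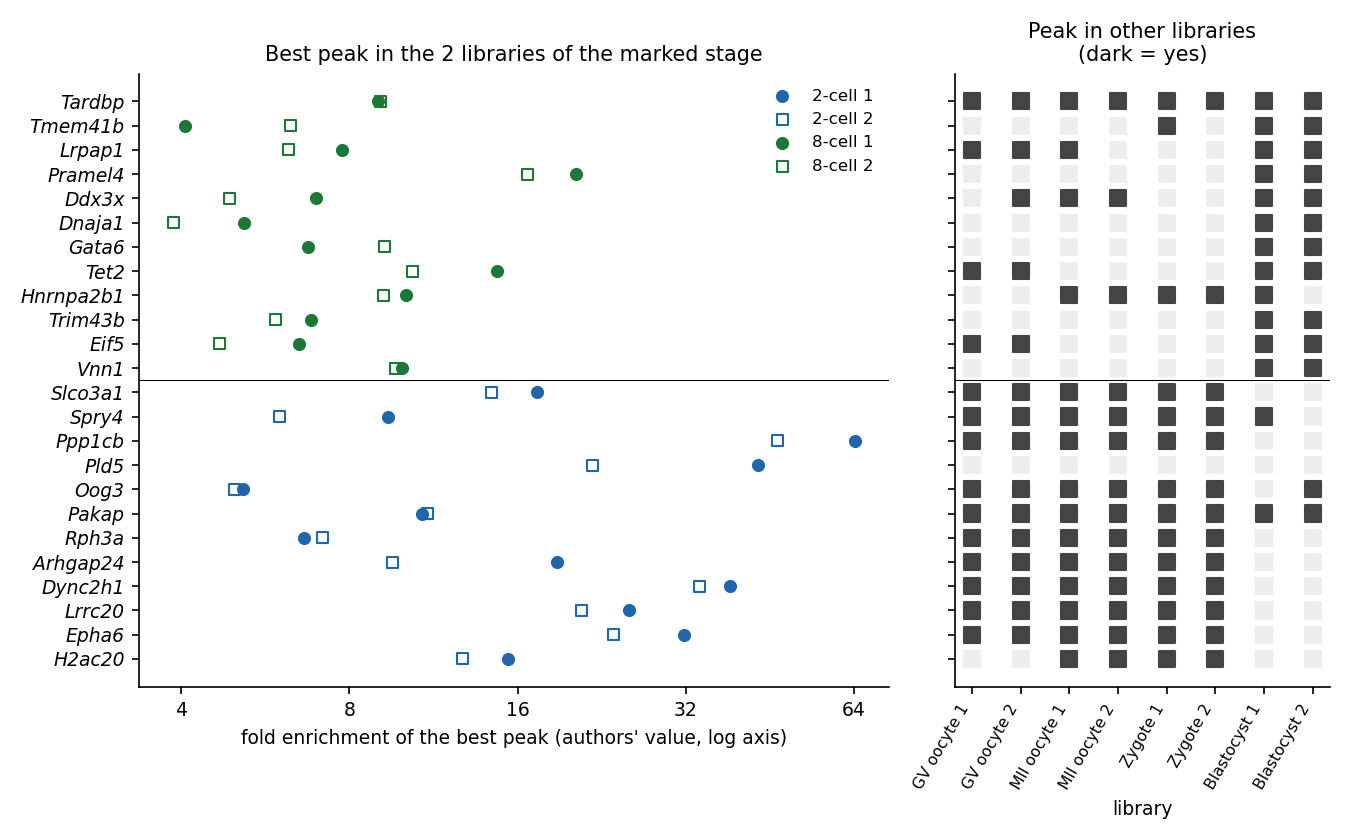
Left, the authors' fold enrichment (log axis) of the best peak in the 12 gained genes (8-cell libraries, green) and the 12 lost genes (2-cell libraries, blue) with the highest-ranking peaks; right, whether each of the other 8 libraries has a peak over the gene. The folds run up to 64.2 in Ppp1cb, and the lost genes are mostly dark in the 6 maternal libraries and pale in blastocysts.

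The libraries of the other stages, which the calls did not use, separated gained from lost genes. Gained genes were marked in 75.9% and 60.2% of cases in the blastocyst libraries, above the 62.4% and 53.1% of all genes marked in any of the 4 libraries. Lost genes were marked there in 18.7% and 15.9% of cases. In the maternal libraries the order was reversed, with 15.5% to 45.6% of gained and 56.9% to 63.3% of lost genes marked, beside 33.6% to 54.5% of all genes marked in any of the 4 libraries. Kept genes were at 52.0% to 76.8% in the maternal and at 92.4% and 84.1% in the blastocyst libraries, so lost genes were near kept genes in the former and far below them in the latter. Of the 1080 gained genes, 488 (45.2%) had no peak in any maternal library and 594 (55.0%) had one in both blastocyst libraries. The shares were 36.3% and 47.2% over all 7074 marked genes and 18.1% and 82.3% over kept genes. Over the 3449 marked genes that were neither gained, lost nor kept they were 45.2% and 30.8%. The share without a maternal peak was therefore not particular to gained genes. Among gained genes 220 met both conditions, led by Pramel4, Dnaja1, Gata6, Trim43b, Vnn1, Zfp971, Usp33 and Ppp2r2c. The zinc-finger gene Zfp971 had folds of 19.2 and 10.9, with its peak 458 bp from the 3′ end, and Ppp2r2c, a regulatory subunit of protein phosphatase 2A, had 14.8 and 10.7. A smaller class, 120 gained genes (11.1%), was marked in all 6 maternal libraries, in neither 2-cell library and again in both 8-cell libraries, and 84 of them were also marked in both blastocyst libraries. Gata3, Pard3, Stk4, Dcp1a and Psmd5 belong to it. The 8-cell peaks of Dcp1a were weak, with −log10 q-values of 2.93 and 9.83. Marks were counted per gene body, so the maternal and 8-cell peaks of such a gene need not lie at the same place. Of the 561 lost genes, 280 (49.9%) were marked in all 6 maternal libraries, 163 (29.1%) in none, and 412 (73.4%) in no blastocyst library. Kept genes were marked in all 6 maternal libraries nearly as often (46.3%), and all marked genes less so (27.1%), while 5.80% of kept and 31.7% of all marked genes had no blastocyst peak. Lost genes that were marked in the 2-cell libraries and nowhere else were led by Pld5, Trmt11, Skint6, Ulk4, Spdye4b, Baat, Ccdc137 and Git2. Trmt11, a subunit of a tRNA methyltransferase, had folds of 35.3 and 18.4, and Baat, the enzyme that joins bile acids to amino acids, had 24.6 and 18.2.

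Of 31 genes of the trophectoderm, the outer layer that forms the placenta, 19 were marked in any of the 4 libraries and 9 of these were gained (47.4%, beside 15.3% of all marked genes). Of the rest, 5 were kept and 0 lost, beside 7.93% lost of all marked genes, and with 19 genes the 0 is not read as a difference. Each 2-cell library marked 7 of the 31, the 8-cell libraries 17 and 19, and the blastocyst libraries 20 and 18, while the maternal libraries marked 6 to 12. Cdx2, the transcription factor that defines the trophectoderm, had folds of 10.4 and 6.47, with its peak 503 bp from the 3′ end. Eomes, a T-box factor of trophoblast stem cells, had folds of 11.1 and 10.2, and both genes were marked in no maternal and both blastocyst libraries. The factor Gata3 had folds of 15.1 and 14.6 and was marked in all 6 maternal libraries. Cldn4, a tight junction protein, had folds of 7.76 and 8.19, the epithelial factor Elf3 3.89 and 5.09, and the glucose transporter Slc2a3 5.51 and 5.85. Lists were chosen with earlier results of these data known and share members, and a count beside that of all marked genes is a description.

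Genes of cell contact, polarity and the Hippo pathway carry position signals in the compacting embryo. Their gained shares are read against 15.3% of all marked genes, and their counts of 0 lost, beside 7.93%, are not read as a difference in lists of this size. Among 54 junction and polarity genes 35 were marked, of which 8 were gained (22.9%), 0 lost and 10 kept. The 2-cell libraries marked 13 and 17 of them, the 8-cell libraries 29 each and the maternal libraries 15 to 24. Of all 21887 protein-coding genes, the 2-cell libraries marked 3692 and 4020 and the 8-cell libraries 4624 and 4986. Cdh1, the adhesion molecule E-cadherin that drives compaction, had folds of 6.30 and 4.29, and its partner Ctnnb1 (beta-catenin) 3.94 and 5.45. Pard3, a scaffold of the apical polarity complex, had folds of 14.7 and 9.20, and Llgl1, a basolateral polarity protein, 5.47 and 6.99. Nectin2, another adhesion molecule, had 6.34 and 8.05. Of 34 Hippo pathway genes, 27 were marked, 5 gained (18.5%, near the share of all marked genes), 0 lost and 5 kept. The 2-cell libraries marked 8 and 10 of the 34, the 8-cell libraries 19 each and the maternal libraries 8 to 15. The gained ones were Amotl2 and Amot, scaffolds that hold YAP1 out of the nucleus, Tead1, a DNA-binding partner of YAP1, the kinase Stk4, and Wwc2. Amotl2 had folds of 8.44 and 8.59 and Amot 5.97 and 5.22. Of 31 pluripotency genes, 24 were marked and 4 gained (16.7%, near the share of all marked genes): Lin28a, Tfcp2l1, Sall1 and Sox2. The Sox2 call rests on weak 8-cell peaks, with −log10 q-values of 4.66 and 5.03 and a mean percentile of 11.7. Sox2 was also marked in 4 of the 6 maternal libraries. Gbx2 was lost, with folds of 8.73 and 8.14 in the 2-cell libraries.

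Genes of the first wave of embryonic transcription were more often kept than lost, as were all 7074 marked genes (1984 kept, 28.0%, and 561 lost). Of 41 genes known from the 2-cell stage and genome activation, 33 were marked, 16 kept, 7 lost (21.2%, beside 7.93% of all marked genes), 1 gained and 9 in other patterns. Usp17ld, a ubiquitin protease gene, had 2-cell folds of 15.0 and 7.69, and Zscan4b, of the zinc-finger family that marks the 2-cell state, 13.5 and 10.1, and neither was marked at any other stage. Close relatives were kept in all 4 libraries, among them Zscan4d (4.45 and 3.79 at the 2-cell, 4.88 and 3.81 at the 8-cell stage), Usp17lb, Obox6, Tdpoz1, Tdpoz2 and Tdpoz4, while Zscan4c and Zscan4f had no peak in the 4 libraries. The homeobox gene Obox5 had 7.69 and 3.30 and Obox3 had 6.19 and 5.27. Among the 7 lost genes, Obox5 and Trim75 were marked in all 6 maternal libraries and the others in none. The gained member of the list was Trim43b, with 8-cell folds of 6.84 and 5.90. Most of these genes belong to families of near-identical copies, so which copy a peak belongs to is uncertain. Of 47 oocyte-specific genes, 27 to 31 were marked in each maternal library, 10 and 3 in the 2-cell libraries, and 0 and 2 in the 8-cell libraries. Of the 12 marked in any of the 4, 3 were lost and 9 were in other patterns. The lost ones included Oog3, with folds of 5.16 and 4.98, and Obox1, with 11.1 and 5.92. The 2-cell replicates differed here: 7 genes of this list were marked in 2-cell replicate 1 and in no other of the 4 libraries. Of 31 maternal-effect genes, 21 were marked and 5 lost (23.8%): Npm2, Dnmt1, Nlrp5, Zar1l and Zfp57. Two-replicate support was weak for Zfp57 (−log10 q-value of 1.69 in 2-cell replicate 2) and Zar1l (3.07 in 2-cell replicate 1). Zfp57 was also marked in all 6 maternal and both blastocyst libraries, and the other lost genes of this list in no blastocyst library. Dnmt1, the maintenance DNA methyltransferase, had folds of 10.9 and 18.4, Nlrp5, a component of the subcortical maternal complex, 15.7 and 8.91, and Npm2, a histone chaperone of the oocyte, 9.27 and 6.66. Khdc3 and Cdh1 were the gained members of this list.

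**Figure D3:**
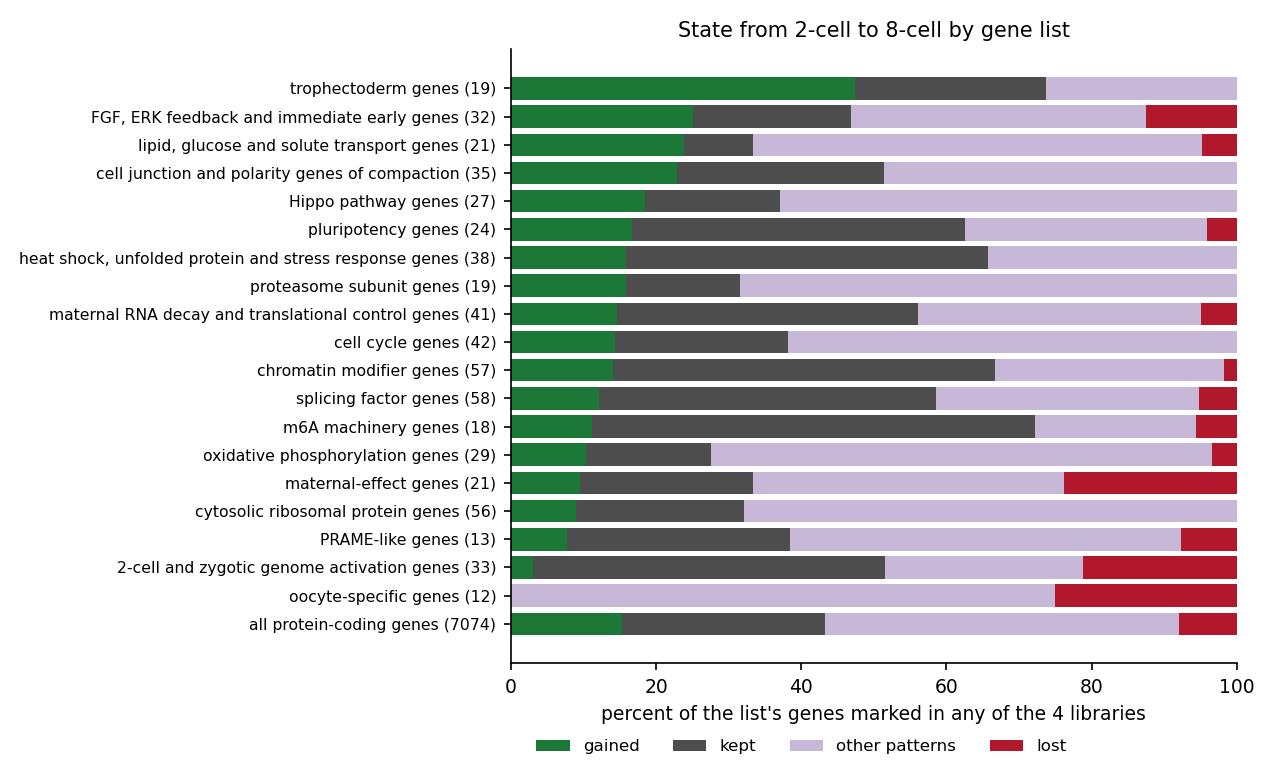
Share of each gene list that was gained, kept, lost or in another pattern (horizontal axis, percent of the members marked in any of the 4 libraries; their number in brackets), for the lists with at least 10 such members, beside all protein-coding genes at the bottom. Trophectoderm genes have the longest gained part (47.4%), and oocyte-specific, maternal-effect and 2-cell genes have the longest lost parts (25%, 23.8% and 21.2%).

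Signalling genes were called in both directions. Of 32 marked genes of FGF signalling, ERK feedback and the immediate early response, 8 were gained (25%) and 4 lost (12.5%), beside 15.3% and 7.93% of all marked genes. The feedback inhibitors Spry4 and Spry1 were lost, the latter with folds of 5.75 and 4.40, and so were the kinase Map2k1 and Ier5 (5.23 and 6.20). Spry2, of the same family of inhibitors, was kept, with folds of 12.5 and 19.7 at the 2-cell and 10.3 and 17.3 at the 8-cell stage. Jun, a subunit of the AP-1 transcription factor, was gained with folds of 11.4 and 12.4, as were Spred1, an inhibitor of ERK signalling (14.0 and 6.98), and Sos2 (9.46 and 7.16). Of 21 marked genes of lipid, glucose and solute transport, 5 were gained (23.8%, beside the same 15.3%) and 1 lost. The gained ones included Fasn, fatty acid synthase, and the hexokinase Hk2, with 8-cell folds of 9.18 and 10.8. Slc7a11, the cystine transporter, was the lost member, with 2-cell folds of 35.8 and 27.0, at a peak 108340 bp from the 3′ end.

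Other groups had gained shares of 7.69% to 15.8%, around or below the 15.3% of all marked genes. Of 57 marked chromatin modifier genes, 8 were gained (14.0%), 1 lost and 30 kept, the gained ones including Tet2, Setd1b (12.5 and 6.38) and Dot1l (7.78 and 9.60). Splicing factor genes had 7 gained and 3 lost of 58, cell cycle genes 6 and 0 of 42, stress response genes 6 and 0 of 38, proteasome genes 3 and 0 of 19, oxidative phosphorylation genes 3 and 1 of 29, and RNA decay and translational control genes 6 and 2 of 41. Gained decay genes included Cnot6, a deadenylase of the CCR4-NOT complex (8.09 and 9.63), and Dcp1a, a decapping cofactor (4.00 and 5.36). Among 13 marked PRAME-like genes, 1 was gained, 1 lost and 4 kept. Of the 18 marked genes of the m6A machinery, 11 were kept, among them Wtap, Ythdf2, Virma and Ythdc1. In that list Hnrnpa2b1 and Rbmx were gained, and Ythdc2, a helicase that reads m6A in germ cells, was lost, with 2-cell folds of 8.01 and 5.92 and marks in all 6 maternal libraries. Ribosomal protein genes set the 2-cell replicates apart: 18 of 87 were marked in 2-cell replicate 1, against 45 in replicate 2 and 43 in each 8-cell library. Of the 56 marked in any, 5 were gained, 0 lost and 13 kept, and 17 were marked in every library but 2-cell replicate 1, so their gain cannot be called from both replicates. Over all genes, 599 had that pattern, against 265 that were marked in every library but 2-cell replicate 2.

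Markers of other cells were sparse. Of 23 cumulus and granulosa cell markers, 3 were marked in any of the 4 libraries and 20 in none, and the 1 kept was Gja1, a gap junction gene that embryos also express. No sperm marker of 12 was marked. Of 14 oviduct, uterus and blood markers, Pecam1 (8-cell folds of 7.58 and 3.63) and Pdgfra (5.14 and 9.20) were gained and Ovgp1, the oviduct glycoprotein (2-cell folds of 6.31 and 2.98), was lost. The other 11 had no peak in the 4 libraries. In blastocysts, both libraries also marked Pdgfra and 1 marked Pecam1. Of all 21887 protein-coding genes, 14813 likewise had no peak in the 4 libraries. A peak is a mark and not a level of RNA, so these few markers do not show which cells the pools held.

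Within genes, gained and lost regions lay at different places. Over genes longer than 10000 bp whose strand the table gives, 36.5% of the 1318 gained regions lay within 2000 bp of the 3′ end, as did 27.9% of the 1323 kept regions, but 6.75% of the 637 lost ones. The median distance to the 3′ end was 3372.5 bp for gained, 4453 bp for kept and 23788 bp for lost regions. The median length of the genes that held them was 67839 bp for lost, 37938 bp for gained and 30233.5 bp for kept regions. Whether a region lies in an exon or an intron is not known here. The share lost was higher at longer distances: of the regions in both 2-cell libraries, 9.15% of the 470 within 2000 bp of the 3′ end were lost, 19.3% of the 698 between 2000 and 10000 bp, 34.2% of the 681 between 10000 and 50000 bp and 60.4% of the 374 beyond. Regions marked in all 6 maternal libraries had shares of 12.1%, 20.7%, 31.3% and 64.5% over the same distances, and regions marked in none of them 13.5%, 29.3%, 50.7% and 66.2%. In whole libraries, 19.7% and 22.4% of 2-cell peaks in such genes lay within 2000 bp of the 3′ end, and 29.7% and 32.7% of 8-cell peaks, groups that did not overlap (exact two-sided permutation p = 0.333). The lost genes depend on this: when a peak had to lie within 2000 bp of an end of the gene, 801 genes were gained and 167 lost, and among genes under 50000 bp, 774 were gained and 267 lost.

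**Figure D4:**
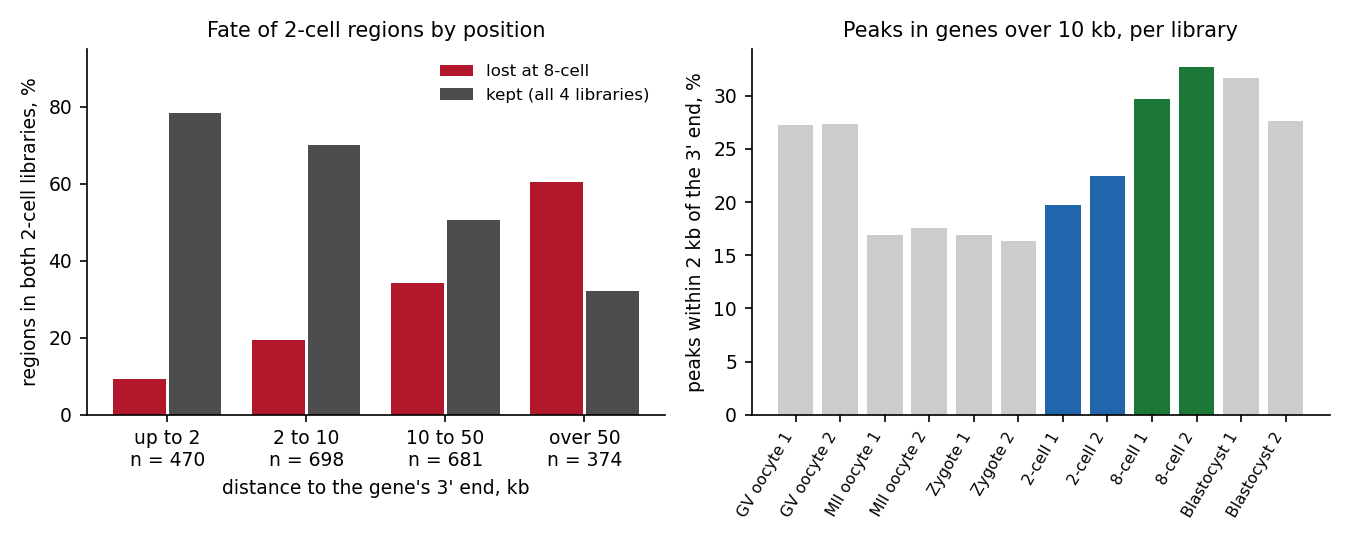
Left, percent of the regions found in both 2-cell libraries that were lost (red) or kept (dark) at the 8-cell stage, by distance to the 3′ end of the gene; right, percent of peaks within 2 kb of the 3′ end in each library, with the 2-cell (blue) and 8-cell (green) libraries coloured. The lost share climbs from 9.15% to 60.4%, and the 8-cell bars (29.7% and 32.7%) stand above the 2-cell bars (19.7% and 22.4%).

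Genes that stayed marked could still exchange regions. Of the 1984 kept genes, 210 held a lost region, 411 a gained one and 76 both. The highest-ranking of the 76 were Baz1a, Son, Apc, Nin, Zfp978, Zfc3h1, Smc6 and Zfp993. Son, a splicing cofactor gene, kept 3 regions, the strongest with folds of 12.6 and 10.6 at the 2-cell and 23.0 and 16.2 at the 8-cell stage. It lost a region at chr16:91651527-91651731 (9.35 and 6.16), 27564 bp from its 3′ end, and gained one at chr16:91662430-91662919 (5.74 and 4.91), 16518 bp from that end. Smc6, of the SMC5-SMC6 complex of DNA repair, lost a region 29918 bp from its 3′ end (2.21 and 6.06) and gained one at 1945 bp (2.56 and 3.45). It kept a region at 30731 bp, close to the lost one. Nin, a centrosomal protein gene, lost a region at 31616 bp (2.85 and 9.59) and gained one at 3382 bp (3.79 and 4.00). Nin also kept regions at 33883 and 2400 bp, so both parts of the gene were marked at both stages. In Baz1a, a chromatin remodelling gene, the lost region had folds of 5.31 and 4.30 and the gained one 3.58 and 3.01, beside 17.8 and 12.4 (2-cell) and 17.6 and 14.9 (8-cell) at its strongest kept region. In Zfp978 a lost region reached a fold of 11.9 in 2-cell replicate 2, beside at most 11.1 at its kept regions in the 2-cell libraries.

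The lost intergenic regions fell into a maternal and a 2-cell class. Of the 1519, 696 (45.8%) had a peak in all 6 maternal libraries, 725 (47.7%) in none and 98 (6.45%) in 1 to 5. After the 2-cell stage both classes ended alike, with a peak in a blastocyst library for 6 of the 1519. The split was not particular to intergenic regions. Of lost regions in protein-coding genes, 41.4% had a peak in all 6 maternal libraries, 41.4% in none and 17.2% in 1 to 5. Among intergenic regions in both 2-cell libraries, 96.8% of the 719 with all 6 maternal peaks were lost, and 77.4% of the 937 with none. The matching shares in protein-coding genes were 30.5% of 1300 and 38.7% of 1024. Lost intergenic regions were far from protein-coding genes, at a median of 51431 bp from the nearest, with 9.87% within 5000 bp. Gained ones lay at a median of 19936 bp, with 22.8% within 5000 bp. To the nearest gene of any kind the medians were 17238 bp for lost and 7513 bp for gained regions. Extending genes by 5000 bp on both sides left 1231 lost and 118 gained intergenic regions. The fold enrichment of the lost ones had a median of 9.08 and 7.42 in the 2-cell libraries, against 7.27 and 6.45 for lost regions in protein-coding genes. The 128 kept intergenic regions had medians of 9.08 and 9.27 there, so the higher fold was shared by intergenic regions that were not lost. Autosomes held 0.783 to 1.38 lost intergenic regions per Mb of intergenic sequence, the X chromosome 1.12 and the Y chromosome 0.103. The gene table holds no retrotransposons, so the share of these regions inside repeats is not known here.

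**Figure D5:**
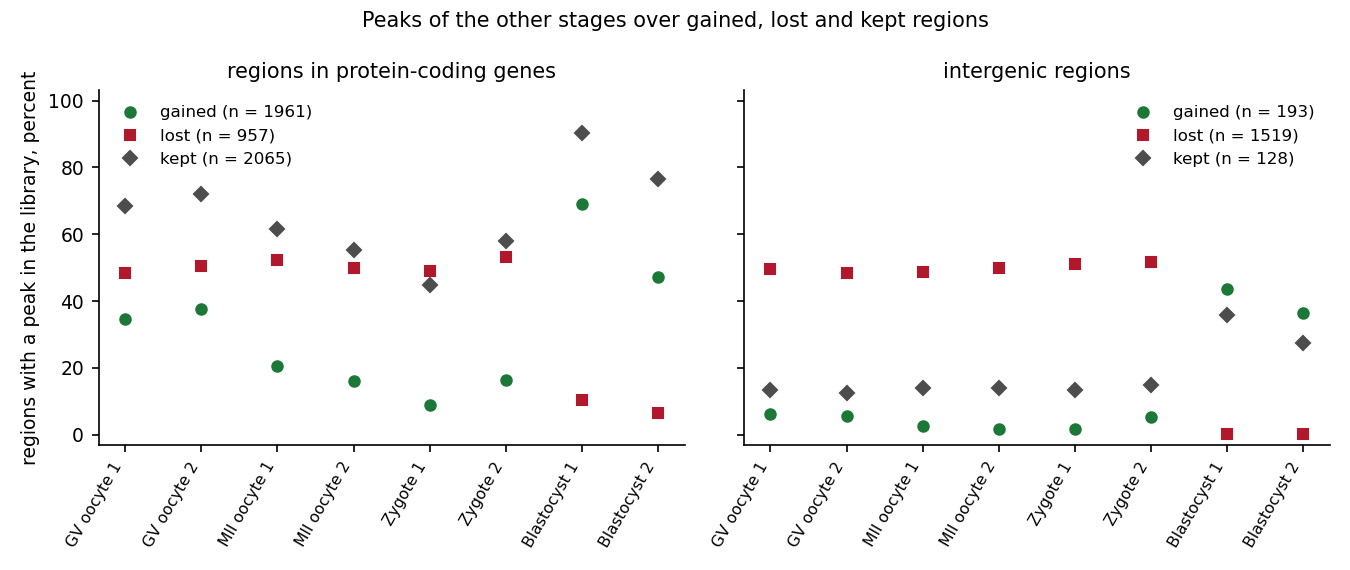
Percent of gained, lost and kept regions (vertical axis) with a peak in each of the 8 libraries that the calls did not use (horizontal axis), in protein-coding genes (left) and between genes (right). Lost intergenic regions are at 48.5% to 51.5% in the maternal libraries and at 0.3% or less in blastocysts, and gained genic regions are highest in blastocysts.

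The lost intergenic region with the highest rank was at chr6:89192230-89192768, with folds of 14.7 and 26.4, and it belonged to the largest cluster. Within chr6:89171910-89204424, a span of 32515 bp that lies 112029 bp from the nearest protein-coding gene, Plxna1, there were 13 lost regions with folds of 2.42 to 26.4, of which 10 had no maternal peak. In the same span 5 further regions missed the rule, 4 of them marked in 2-cell replicate 1 alone and 1 in both 2-cell libraries and in 8-cell replicate 1. Chaining lost intergenic regions closer than 10000 bp gave 1126 groups, of which 311 held at least 2 regions and together 704. A group of 5 regions with no maternal peak lay at chrX:67492104-67497788, 185216 bp from Gm1140, and groups of 4 at chrX:90574785-90577938 and chr15:49929339-49931891 likewise had none. Single strong regions had maternal peaks in all 6 libraries: one at chrX:44515415-44515851, with folds of 49.1 and 43.8, one at chr6:71311262-71311994, with 45.7 and 37.1, one at chr4:27730643-27730911, with 14.9 and 13.6, and one at chr6:78944774-78945382, with 13.7 and 10.1. None of these had a blastocyst peak. The gained intergenic regions were led by chrX:5114535-5115006, with 8-cell folds of 10.9 and 10.3, and 3 of the 4 highest-ranking ones lay on the X chromosome. All 4 were marked in both blastocyst libraries and in no maternal one. Over all 193 gained intergenic regions the X chromosome was not favoured. It held 9, or 0.0770 per Mb of intergenic sequence, against 0.144 per Mb on autosomes.

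Among non-coding genes, Xist had the highest-ranking gained region. Xist is the RNA that coats and silences the inactive X chromosome, and in the mouse embryo it is first transcribed from the paternal X. Its gene (chrX:103460373-103483233) held 5 gained regions, none with a maternal peak. The strongest, at chrX:103466205-103466736, had folds of 13.1 and 13.5 and a peak in both blastocyst libraries, and the weakest had 2.53 and 3.66. The gene lies within Tsix, its antisense partner, and the peak lists give no strand, so the 2 RNAs cannot be told apart. Tug1, Neat1, Norad and Snhg14, all long non-coding RNAs, each held 1 gained region. Norad, Tug1 and Snhg14 also held kept regions, as did Malat1. The 298 lost regions that touched only such genes or pseudogenes made 153 overlaps with long non-coding RNA genes and 121 with pseudogenes. The 143 gained ones made 52 and 72. Kept regions made 24 and 73, and regions in other patterns 412 and 280. The calls differ in their number of regions, so these overlaps are not read as a preference of losses or gains. Among the lost were 5 pseudogenes of the homeobox gene Obox3.

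Of 1005 microRNA hairpins in the RefSeq table, 16 lay within 2000 bp of a gained region, 6 of a lost one and 24 of a kept one. They lay near 13 of all 2297 gained, 5 of 2774 lost and 16 of 2296 kept regions. Counts this small are not read as a difference between the calls. The gained group included Mir293, Mir294 and Mir295, which belong to the cluster that is the main source of microRNAs in mouse embryonic stem cells and promotes their cell cycle. The region was at chr7:3222209-3222568, 1367 bp beyond Mir295 and inside the body of Nlrp12, with 8-cell folds of 5.73 and 3.21 and no peak at any other stage. The mature 3p microRNAs of Mir294 and Mir295 are shown because they share the seed AAGUGCU (bases 2 to 8, in capitals), while that of Mir293 differs.
mmu-miR-294-3p: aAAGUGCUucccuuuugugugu
mmu-miR-295-3p: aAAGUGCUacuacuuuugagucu
mmu-miR-293-3p: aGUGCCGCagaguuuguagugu
The peaks lie on genomic sequence next to the hairpins, not on the mature microRNAs. In Larp7, which hosts the Mir302 and Mir367 hairpins, a region 1675 bp from Mir367 was gained (9.76 and 5.27), and a region 408 bp from it was kept, with 2-cell folds of 2.81 and 5.61 and 8-cell folds of 2.88 and 3.31.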

How the data were processed

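Each peak list was deposited by the authors for 1 immunoprecipitated library, called against its matched input, as the peak names show. Per the submitters' processing notes, MACS2 2.1.2, HISAT2 2.1.0, cutadapt 1.8.1 and the build mm10 were used. Their settings were not stated in the labels. The deposited values are a score, a fold enrichment (ratio), −log10 p-value and −log10 q-value, and the summit position. They served to rank, filter and describe peaks within a list. Read depth is unknown and can change how many peaks are called. The 12 inputs were not analysed here.

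Lines with the same interval were collapsed to 1 peak, and peaks on the mitochondrial chromosome were left out. Gene bodies came from a RefSeq table of GRCm38.p6, the assembly of mm10. An overlap of 1 bp marked a gene, and the midpoint set the class of a peak or region. Strand was taken from the RefSeq promoter table, for 17492 of 21887 protein-coding genes. Python 3.11.15, pandas 2.3.3 and NumPy 2.4.6 were used, and the overlap and calling code was tested on simulated peaks. Members, lists and tests were chosen with earlier results of these data known. Genes named are the 12 gained and 12 lost by mean percentile of their best peak, up to 6 of each list per direction, 8 first gained, 8 marked at the 2-cell stage alone and 8 with exchanged regions; unnamed gene models were skipped, and a gene that the list rule names is not reported here. Other list members, non-coding genes and microRNAs were named after their values were seen.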

Additional observations from a re-analysis of the deposited data

How the results depend on the processing

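With each library cut to its best 8802 peaks by q-value, or with peaks of −log10 q-value of at least 5, every count of gained and lost genes and regions was within 1.5 times that reported. Changes beyond 1.5 times came from counting genes under 50000 bp (267 lost), peaks within 2000 bp of a gene end (167 lost) and genes extended by 5000 bp (118 gained intergenic regions). Leaving out 1 library relaxes the rule by construction: the counts were 1345 to 1738 genes gained, 679 to 1006 lost, 1126 to 2316 genic regions lost, 2283 to 4114 gained, 1573 to 2551 intergenic regions lost and 212 to 464 gained. The difference in intergenic share ran from -23.5 to -17.9 points. The replicate block, taken as pairs of equal number, gave 2189 and 2100 genes gained and 1257 and 1134 lost; in intergenic share it gave -20.7 points (exact sign-flip p = 0.5, the smallest for 2 pairs). The numbers do not pair the samples: replicate deviations correlated by 0.018 over 7074 genes. Of 140 named genes, 75 kept the same difference in marked libraries in every setting that could be run for them. When only peaks near a gene end counted, 61 moved. Each setting only removed or trimmed peaks, genes or libraries, so no difference could change sign. Leaving out 1 library could not move a named gene either, by construction. Unknown depth limits what a missing peak shows.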
